A study of Homo sapiens with 4 samples.

Results

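The genes of purine, pyrimidine and folate nucleotide synthesis were examined in PC-3 cells that overexpress RRM2. They were 38 genes, chosen from a list of de novo, folate, salvage and nucleotide kinase symbols by their known roles and not by a cutoff on measured values, out of 17634 genes in the deposited table. All 38 were in the table and all 38 passed the filter on low counts, which left 15781 genes to test. PC-3 is a prostate cancer line derived from a bone metastasis. RNA from 2 libraries of cells carrying an empty vector (PC-3-EV) was compared with RNA from 2 libraries of cells overexpressing RRM2 (PC-3-RRM2), a lentiviral line kept under puromycin selection. Neither the labels nor the methods say whether the line was 1 clone. They also do not say whether the replicates came from separate cultures, so the p-values reflect library-to-library spread alone, possibly technical.

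Ribonucleotide reductase, whose small subunit is encoded by RRM2, makes deoxynucleotides from ribonucleotides and was not among the 38 genes. The genes studied here act upstream of it, downstream of it or beside it. In the de novo route, ribose phosphate activated as PRPP is built into the purine ring step by step, and the pyrimidine ring is assembled first and then joined to PRPP. Folate enzymes supply one-carbon units to the purine ring and to thymidylate. Salvage enzymes reuse free bases and nucleosides, phosphorylases release bases from nucleosides, and kinases carry the nucleotides up to triphosphates. The comparison asks whether the RNA levels of these enzymes differ when RRM2 is raised.

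Expression was given as estimated counts, and the totals were 37801301 and 30778321 in PC-3-EV against 30149181 and 30419769 in PC-3-RRM2. Levels below are CPM, each gene's count scaled to a common library total after TMM (trimmed mean of M values) factors were applied. RRM2 was at 21.8 and 20.8 CPM in PC-3-EV and at 96.6 and 98.8 CPM in PC-3-RRM2. This was a 4.59-fold higher level (log2 fold change 2.20, SE 0.0848, adjusted p = 2.53e-06). The table does not separate the endogenous transcript from the vector transcript. The keratins KRT8 (115 and 116 CPM, means of PC-3-EV and PC-3-RRM2) and KRT18 (106 and 116 CPM) were abundant. KLK3, which encodes prostate-specific antigen, was low (2.90 and 2.92 CPM). Of the markers of other cells, the leukocyte gene PTPRC was at 0.306 and 0.577 CPM, while CD68 was at 105 and 99.4 CPM and the fibroblast collagen gene COL1A1 was at 63.6 and 80.5 CPM against 80.7 and 55.7 CPM. Neither leukocyte marker tested was called, and of the fibroblast markers 1 was higher (LUM) and 1 lower (PDGFRA). The 2 endothelial markers tested, PECAM1 and KDR, were lower, with a summed level of the list of 57.2 and 55.0 CPM in PC-3-EV against 28.8 and 29.8 CPM, while the defining markers CDH5 and VWF had at most 9 counts in any library. The epithelial markers EPCAM (log2 fold change 2.94) and CDH1 (2.31) were higher. KRT19, the most abundant of the 5 epithelial markers, was at 294 and 356 CPM against 251 and 183 CPM (-0.58, adjusted p = 0.0200), lower by less than 1.5-fold. Among genes of other processes, all 15 mitosis genes were higher in PC-3-RRM2 (median log2 fold change 0.89), as were 6 of 15 DNA replication genes (median 0.48), against 9.97% of all genes called higher. MCM3, of the replication list, had -0.36 (adjusted p = 0.00937). The part of these markers and processes in the values of the nucleotide synthesis genes was not tested.

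The stretches just upstream of 3 gene starts are shown here because they belong to the genes the results turn on: UPP1, the 1 gene of the 38 called higher, TYMP, the 1 called lower, and PPAT, which passed the adjusted p and shares its start region with PAICS, which did not. They are RefSeq genomic sequence, build GRCh38.p14, printed 5′ to 3′ on the strand named. Capitals mark matches, on either strand, to TGANTCA (the AP-1 element), GGGCGG (the GC box) and CCAAT.

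UPP1, chr7:48088454-48088612, plus strand: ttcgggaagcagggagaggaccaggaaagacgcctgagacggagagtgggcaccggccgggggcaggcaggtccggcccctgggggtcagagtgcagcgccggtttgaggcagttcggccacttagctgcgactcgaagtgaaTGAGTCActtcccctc

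TYMP, chr22:50530087-50530335, minus strand: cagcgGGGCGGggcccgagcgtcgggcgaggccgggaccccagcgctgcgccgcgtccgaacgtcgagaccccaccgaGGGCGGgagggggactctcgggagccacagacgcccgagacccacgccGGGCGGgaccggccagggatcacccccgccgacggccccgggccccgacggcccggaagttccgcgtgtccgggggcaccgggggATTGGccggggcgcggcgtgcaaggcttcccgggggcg

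PPAT and PAICS, the stretch between their starts, chr4:56435638-56435748, plus strand: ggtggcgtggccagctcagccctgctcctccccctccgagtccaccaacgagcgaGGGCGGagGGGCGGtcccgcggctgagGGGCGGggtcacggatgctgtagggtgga

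The UPP1 stretch held 1 match to TGANTCA, written TGAGTCA, and its last 10 bases lie inside the gene as deposited. The TYMP stretch held 3 GC boxes and 1 CCAAT match, which reads ATTGG on the strand shown, and 80.7% of its 249 bases were G or C. The 111 bases between PPAT and PAICS held 3 GC boxes and were 73.9% G or C. PPAT is read to the left from this stretch and PAICS to the right. A window of 250 bases upstream of the RefSeq start was available for 34 of the 38 genes (none for ADSL, ADSS, IMPDH2 and SHMT2). The GC box was found in 24 of them (70.6%), against 42.6% of all 35116 windows of the same length. CCAAT was found in 13 (38.2% against 32.0%) and the E-box CACGTG in 5 (14.7% against 6.34%), which were PPAT, ATIC, DHODH, MTHFD1 and DCTPP1. The CACGTG match of PPAT lies in its window but outside the stretch printed above. TGANTCA was found in 2, NME1 and UPP1 (5.88% against 6.57%), and TGATGNAA, an amino acid response element, in none against 3.14% of all windows. Each of the 34 genes gave 1 window, the one nearest to its deposited start. The 35116 windows were not limited to the genes tested here or to 1 per gene, so these shares are over unlike sets. The matches describe letters in the windows and no more.

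Few of the 38 genes differed by more than 1.5-fold. A gene was called when its adjusted p was below 0.05 and its fold change above 1.5. UPP1 was called higher and TYMP was called lower, and the other 36 genes were not called. That is 5.26% called, against 18.2% of all genes tested (9.97% higher and 8.19% lower). At adjusted p below 0.05 and any fold, 9 of the 38 differed (23.7%), with 5 higher and 4 lower. Over all genes this share was 34.2%, with 18.8% higher and 15.5% lower. In 36 of the 38 (94.7%) the estimated change was within 1.5-fold, against 76.8% of all genes. The unadjusted 95% interval of the fold change lay wholly within 1.5-fold for 29 (76.3%), against 47.9% of all genes. The median log2 fold change was 0.03 over the 38 genes and the median absolute value 0.17, against 0.27 for all genes. The 38 genes had PC-3-EV means of 8.28 CPM (TYMP) or more. Of the 15781 genes tested, 11649 had a mean CPM of 5 or more. The sets were not matched for level, and the part of level in these contrasts was not tested.

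**Figure D1:**
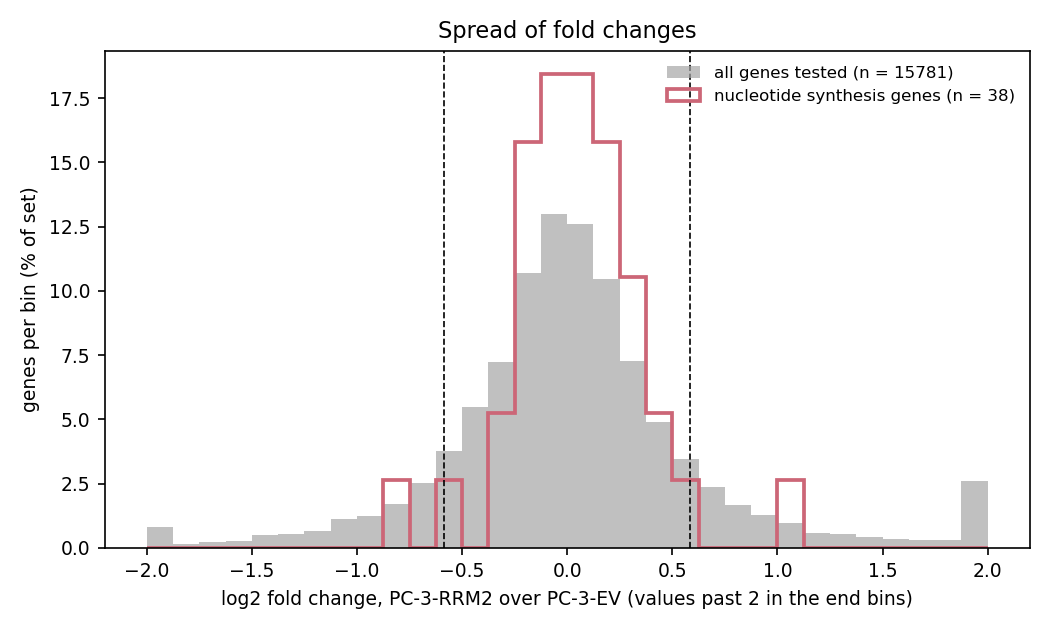
Histogram of the log2 fold change of PC-3-RRM2 over PC-3-EV (x axis) as the percent of genes per bin (y axis) for all 15781 genes tested (grey) and the 38 nucleotide synthesis genes (red outline). Dashed lines mark 1.5-fold, and 36 of the 38 genes lie between them.

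Both PC-3-RRM2 libraries lay above both PC-3-EV libraries for 13 of the 38 genes, below for 12, and the groups overlapped for 13. Over all genes tested the shares were 35.8% above and 33.2% below. The summed level of the 38 genes was 3795 and 3809 CPM in PC-3-EV against 4006 and 4003 CPM in PC-3-RRM2, which was 0.380% and 0.378% of the counts against 0.404% and 0.399%. Per kilobase of transcript, NME2, a nucleoside diphosphate kinase, had the highest level of the 38 in PC-3-EV (719.6 CPM per kb). IMPDH2 followed at 199 CPM per kb, and UMPS had the lowest level at 2.49 CPM per kb. Lengths were those of the longest annotated principal transcript (6738 bases for UMPS), which these cells may not use. In CPM, TYMP had the lowest mean in PC-3-EV (8.28), below UMPS (16.8).

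**Figure D2:**
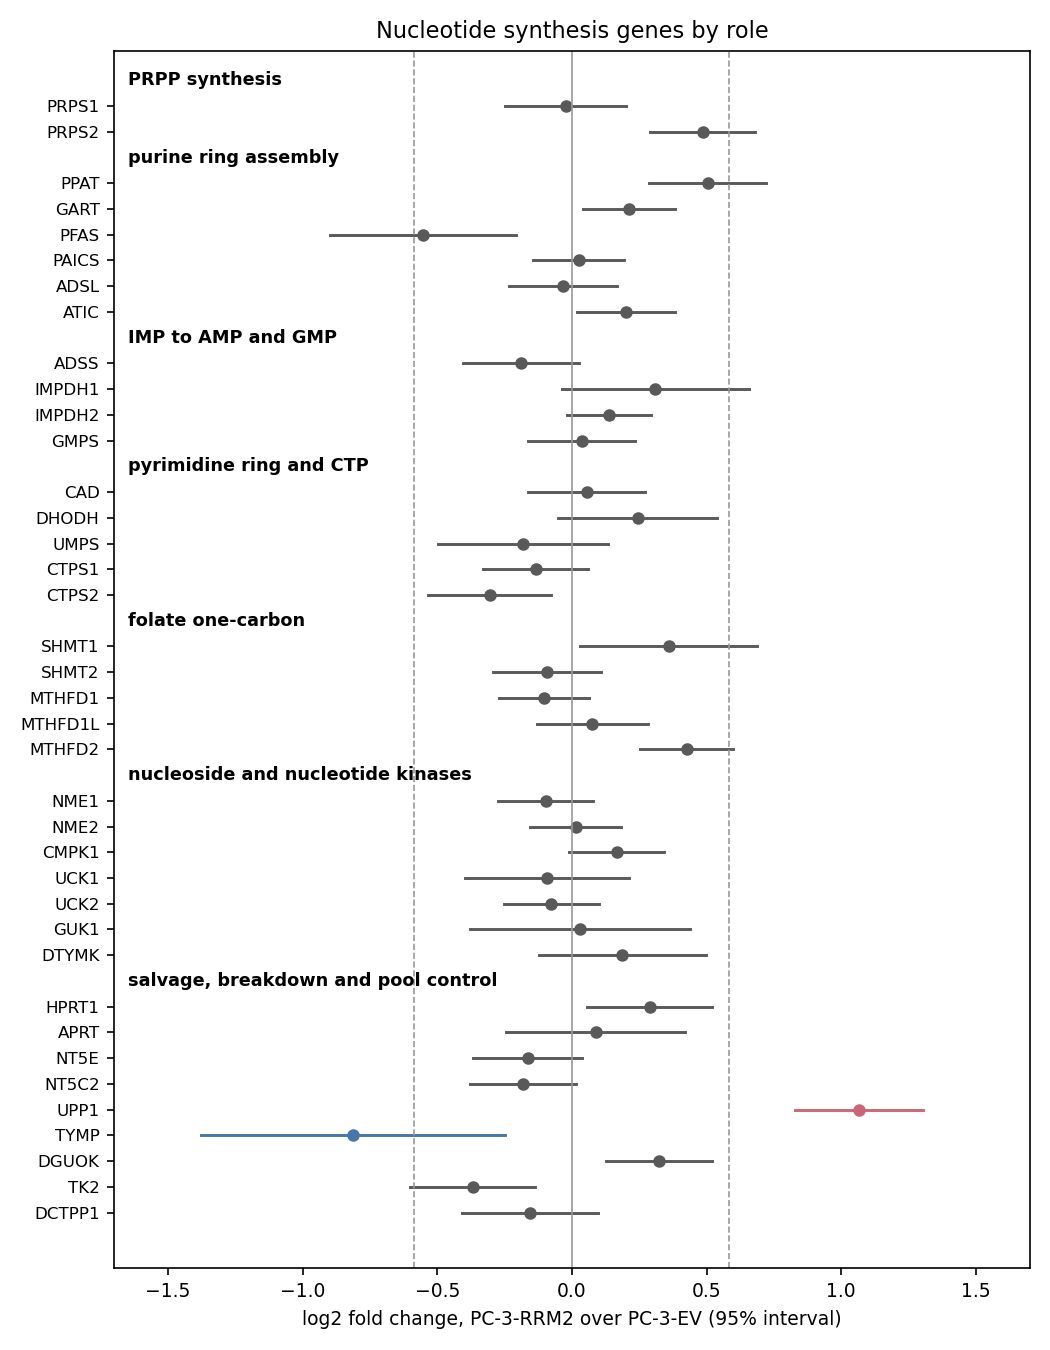
Log2 fold change of PC-3-RRM2 over PC-3-EV (x axis) with its unadjusted 95% interval for the 38 genes, grouped by role (y axis), where red marks the 1 gene called higher, blue the 1 called lower and grey the 36 not called. Dashed lines mark 1.5-fold, and UPP1 (1.07) and TYMP (-0.81) are the 2 points outside them.

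PRPP is made from ribose 5-phosphate by the PRPP synthetases PRPS1 and PRPS2, which are encoded on chromosome X. PRPS2 was at 71.6 and 68.3 CPM in PC-3-EV and at 92.7 and 103 CPM in PC-3-RRM2, so the groups did not overlap. It was higher by less than 1.5-fold (log2 fold change 0.48, SE 0.0845, adjusted p = 0.00387). PRPS1 was at 53.8 and 49.0 CPM against 47.8 and 53.4 CPM, with overlapping groups and a log2 fold change of -0.02 (95% interval -0.25 to 0.20). The share of PRPS1 in the counts of the pair was 42.9% and 41.8% in PC-3-EV against 34.1% and 34.1% in PC-3-RRM2. The change in share was thus larger than the spread within either group.

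The purine ring is assembled on PRPP by 6 of the genes. PPAT, which commits PRPP to the purine route, was at 39.8 and 39.8 CPM in PC-3-EV and at 53.0 and 59.8 CPM in PC-3-RRM2. The groups did not overlap, and PPAT was 1.42-fold higher (log2 fold change 0.50, SE 0.0934, adjusted p = 0.00508). PFAS, the amidotransferase of a later step, was at 22.6 and 21.1 CPM against 17.1 and 12.8 CPM. Both PC-3-RRM2 libraries were lower and stood further apart from each other than the PC-3-EV libraries did (log2 fold change -0.55, SE 0.149, adjusted p = 0.0240).

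PAICS, whose enzyme adds a carboxyl group and aspartate to the ring, was at 307 and 289 CPM in PC-3-EV and at 295 and 311 CPM in PC-3-RRM2. Its groups overlapped, with a log2 fold change of 0.02 (95% interval -0.14 to 0.19), while PPAT, on the other strand with 111 bases between the starts, had an interval of 0.29 to 0.72. The difference between the 2 genes was not tested. GART, a multifunctional enzyme of the same route, had a log2 fold change of 0.21 (adjusted p = 0.0598). ATIC, which closes the ring to give IMP, had 0.20 (adjusted p = 0.0851), and ADSL, adenylosuccinate lyase, had -0.03 (adjusted p = 0.785). The route therefore held 1 gene higher and 1 gene lower at adjusted p below 0.05, both by less than 1.5-fold.

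From IMP, ADSS (adenylosuccinate synthase) leads to AMP, and the IMP dehydrogenases IMPDH1 and IMPDH2 with GMPS (GMP synthase) lead to GMP. None of these 4 genes passed the adjusted p. IMPDH2 was at 332 and 323 CPM in PC-3-EV and at 363 and 358 CPM in PC-3-RRM2 (log2 fold change 0.14, adjusted p = 0.149). IMPDH1 was at 44.6 and 54.1 CPM against 69.9 and 52.3 CPM, with overlapping groups (0.31, adjusted p = 0.148). ADSS had -0.19 (adjusted p = 0.153) and GMPS 0.04 (adjusted p = 0.777). The IMPDH1 share of the pair was 11.8% and 14.3% in PC-3-EV against 16.1% and 12.8% in PC-3-RRM2, so it overlapped between groups.

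Pyrimidine synthesis starts with CAD, which carries the early steps on 1 protein, passes through DHODH in the mitochondrion and ends at UMP with UMPS. CTP is then made by CTPS1 and CTPS2. CTPS2 was at 70.1 and 67.5 CPM in PC-3-EV and at 51.1 and 60.2 CPM in PC-3-RRM2. The groups did not overlap, and CTPS2 was lower by less than 1.5-fold (log2 fold change -0.31, SE 0.0989, adjusted p = 0.0458). CTPS1 was at 68.7 and 63.0 CPM against 58.9 and 61.0 CPM (-0.13, adjusted p = 0.252). CTPS1 made up 49.5% and 48.3% of the pair in PC-3-EV against 53.6% and 50.3% in PC-3-RRM2. CAD had a log2 fold change of 0.05 (adjusted p = 0.686), DHODH 0.24 (adjusted p = 0.175) and UMPS -0.18 (adjusted p = 0.341).

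In folate one-carbon metabolism, the serine hydroxymethyltransferases SHMT1 (cytosol) and SHMT2 (mitochondrion) load carbon onto tetrahydrofolate. MTHFD1, MTHFD1L and MTHFD2 convert its one-carbon forms. MTHFD2, the mitochondrial dehydrogenase, was at 226 and 214 CPM in PC-3-EV and at 284 and 306 CPM in PC-3-RRM2. The groups did not overlap, and MTHFD2 was 1.34-fold higher (log2 fold change 0.43, SE 0.0745, adjusted p = 0.00392). SHMT1 was at 7.69 and 9.06 CPM against 11.1 and 10.3 CPM, with separate groups, but did not pass the adjusted p (0.36, adjusted p = 0.0872). SHMT2, far more abundant, was at 232 and 251 CPM against 241 and 212 CPM, with overlapping groups (-0.09, adjusted p = 0.441). SHMT1 was a small part of the pair in every library, at 3.22% and 3.48% in PC-3-EV against 4.42% and 4.65% in PC-3-RRM2.

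MTHFD1, the cytosolic multifunctional enzyme, was at 132 and 126 CPM in PC-3-EV and at 117 and 122 CPM in PC-3-RRM2 (-0.10, adjusted p = 0.299). Its span shares 10903 bases with ZBTB25 on the other strand. The strand setting of the counting is not given in the sources used here, so reads of these genes may not be told apart. MTHFD1L, its mitochondrial relative, was at 34.9 and 34.9 CPM against 35.8 and 37.7 CPM (0.08, adjusted p = 0.546). The share of MTHFD1 in this pair was 79.1% and 78.3% against 76.6% and 76.4%.

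The kinases showed no gene at adjusted p below 0.05. NME1 and NME2, which exchange phosphate between triphosphates and diphosphates, were at 114 and 117 CPM and at 603 and 643 CPM in PC-3-EV. In PC-3-RRM2 NME1 was at 104 and 113 CPM and NME2 at 643 and 616 CPM (log2 fold changes -0.10 and 0.01). Their read-through symbol NME1-NME2 is listed separately at 22.5 and 20.9 CPM (means of PC-3-EV and PC-3-RRM2), so counts of NME1 and NME2 depend on how shared reads were divided. NME1 made up 15.9% and 15.4% of the NME1 and NME2 counts in PC-3-EV against 13.9% and 15.5% in PC-3-RRM2, and the groups overlapped.

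The uridine-cytidine kinases UCK1 and UCK2 were at 16.1 and 14.6 CPM and at 71.5 and 70.2 CPM in PC-3-EV. In PC-3-RRM2 UCK1 was at 15.6 and 13.1 CPM and UCK2 at 68.2 and 66.3 CPM (-0.09 and -0.08, adjusted p = 0.617 and 0.477). UCK1 made up 18.3% and 17.2% of the pair against 18.7% and 16.5%, which overlapped. CMPK1, the UMP/CMP kinase, had a log2 fold change of 0.17 (adjusted p = 0.130), and DTYMK, the thymidylate kinase, 0.19 (adjusted p = 0.316). GUK1, the guanylate kinase, was at 102 and 129 CPM in PC-3-EV against 140 and 95.5 CPM in PC-3-RRM2, which left its group difference at 0.03 with an interval of -0.38 to 0.44.

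**Figure D3:**
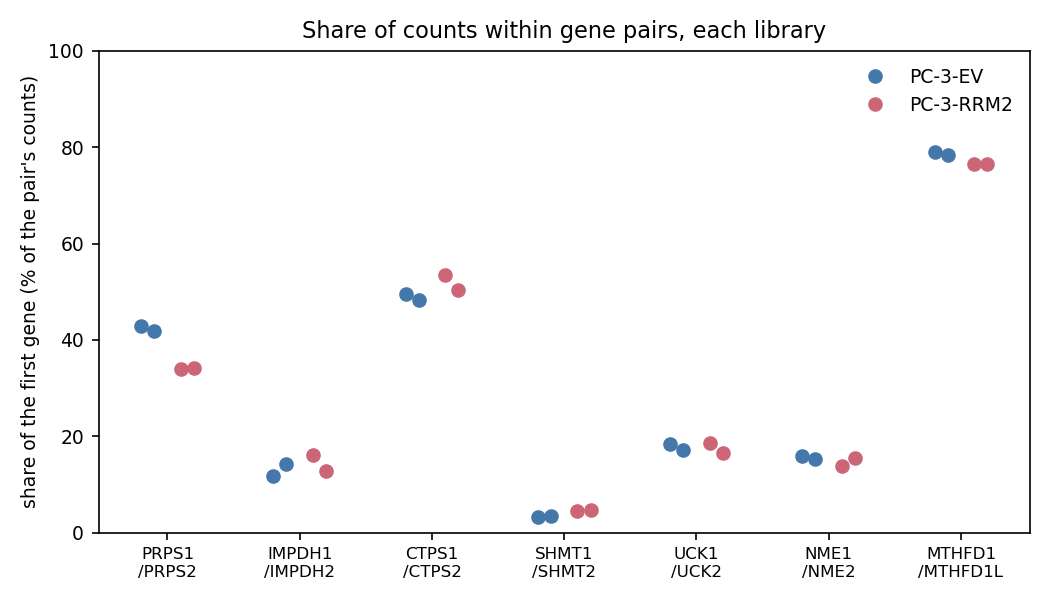
Share of the first gene in the summed counts of 7 gene pairs (y axis, percent), with 1 point per library of PC-3-EV (blue) and PC-3-RRM2 (red) for each pair on the x axis. PRPS1/PRPS2 shows the widest gap between groups, from 42.9% and 41.8% to 34.1% and 34.1%, and IMPDH1/IMPDH2, UCK1/UCK2 and NME1/NME2 overlap.

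Salvage and breakdown genes held both called genes. UPP1 encodes uridine phosphorylase, which splits uridine into uracil and ribose 1-phosphate. It was at 32.6 and 36.4 CPM in PC-3-EV and at 76.8 and 67.6 CPM in PC-3-RRM2, so the groups did not overlap. It rose 2.09-fold (log2 fold change 1.07, SE 0.102, 95% interval 0.83 to 1.30, adjusted p = 0.000228), and it was called higher in all 14 alternative settings run on it. TYMP, the thymidine phosphorylase, was at 7.77 and 8.80 CPM in PC-3-EV and at 5.99 and 3.43 CPM in PC-3-RRM2. Its PC-3-RRM2 libraries lay below both others but stood far apart. It fell to 0.570-fold (log2 fold change -0.81, SE 0.244, 95% interval -1.38 to -0.25, adjusted p = 0.0354). Without PC-3-RRM2 replicate 2, TYMP had -0.46 (adjusted p = 0.0515) and was no longer called, and it was called in 10 of the 14 settings.

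TYMP shares 688 bases with SCO2 on the same strand. SCO2, a copper chaperone gene of cytochrome c oxidase, was at 5.50 and 8.34 CPM in PC-3-EV and at 6.16 and 2.41 CPM in PC-3-RRM2, with overlapping groups (adjusted p = 0.204). Reads of the shared stretch may belong to either gene. UPP1 and TYMP, both nucleoside phosphorylases, thus differed in opposite directions in these libraries.

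DGUOK and TK2, which phosphorylate deoxyguanosine and thymidine in the mitochondrion, also passed the adjusted p without passing 1.5-fold. DGUOK was at 37.1 and 36.8 CPM in PC-3-EV and at 46.0 and 46.6 CPM in PC-3-RRM2 (log2 fold change 0.32, SE 0.0847, adjusted p = 0.0210). TK2 was at 26.2 and 24.7 CPM against 19.8 and 19.6 CPM (-0.37, 95% interval -0.60 to -0.14, adjusted p = 0.0248). The groups of both genes were separate, and they differed in opposite directions. Neither passed with the replicate number as a block (adjusted p = 0.0977 and 0.0825). Without PC-3-EV replicate 1 the adjusted p was 0.202 and 0.201, and without replicate 2 it was 0.283 and 0.0717. HPRT1, the hypoxanthine-guanine salvage enzyme, had a log2 fold change of 0.29 (adjusted p = 0.0587), and APRT, the adenine salvage enzyme, had 0.09 (adjusted p = 0.670). NT5E, the cell surface 5′-nucleotidase, had -0.16 (adjusted p = 0.183), and NT5C2, a cytosolic 5′-nucleotidase, had -0.18 (adjusted p = 0.138). DCTPP1, which removes dCTP from the pool, had -0.16 (adjusted p = 0.302).

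**Figure D4:**
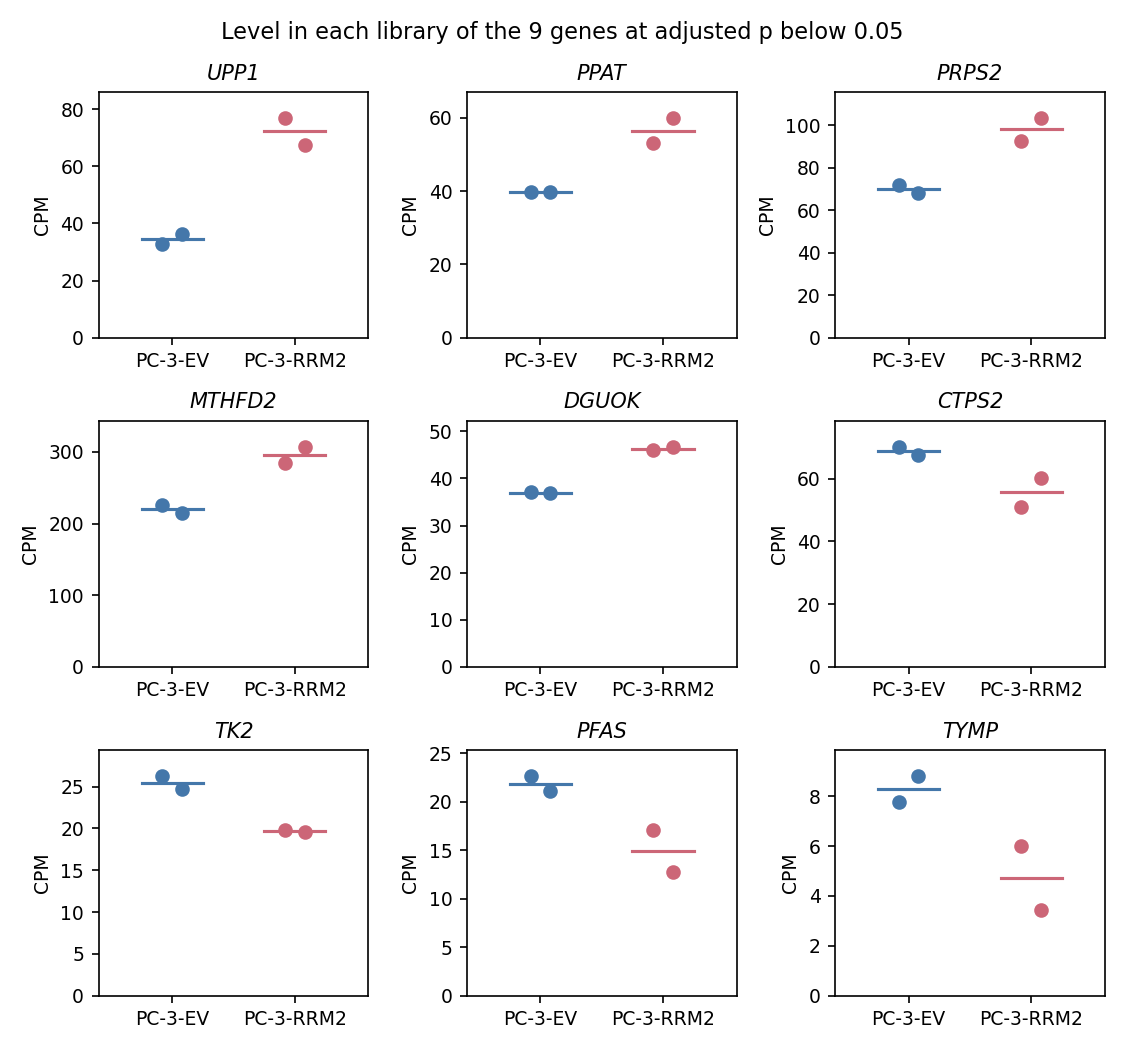
Level in CPM (y axis, from 0) of the 9 genes at adjusted p below 0.05, ordered by fold change, with 1 point per library and a line at the group mean for PC-3-EV (blue) and PC-3-RRM2 (red). The groups do not overlap for any of the 9, which were picked by adjusted p in these same libraries. Over all genes tested, PC-3-RRM2 lay wholly above PC-3-EV for 35.8% and wholly below for 33.2%. The PC-3-RRM2 points of TYMP (5.99 and 3.43 CPM) and PFAS (17.1 and 12.8 CPM) stand apart from each other.

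The spread between libraries differed between the groups, among these genes and in the whole table. The 2 PC-3-RRM2 libraries differed more from each other (median absolute log2 ratio 0.16 over the 38 genes) than the 2 PC-3-EV libraries did (0.09), and the medians over 11649 genes of mean CPM of 5 or more were 0.14 and 0.07. For 16 of the 38 genes the gap within PC-3-RRM2 was wider than the gap between the group means, as it was for 4298 of those 11649 genes. Across the 38 genes, the log2 ratio of PC-3-RRM2 replicate 1 over replicate 2 had a Spearman correlation of 0.888 with the GC content of the transcript, and that of PC-3-EV replicate 1 over 2 had -0.554. Over the 11017 of them with a GC value, these were 0.784 and -0.545. The log2 fold change between groups had -0.125 across the 38 genes and -0.187 over the 11017. The points share the same 4 libraries, so these correlations are descriptions. The transcript of TYMP was 70.0% G or C, the highest of the 38, and its ratio of PC-3-RRM2 replicate 1 over 2 was 0.81 on the log2 scale. In the GC-adjusted alternative, chosen after seeing the data, UPP1 was still called higher and TYMP lower, with 18.6% of all genes called. The part of GC content in the results was not tested beyond that alternative.

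**Figure D5:**
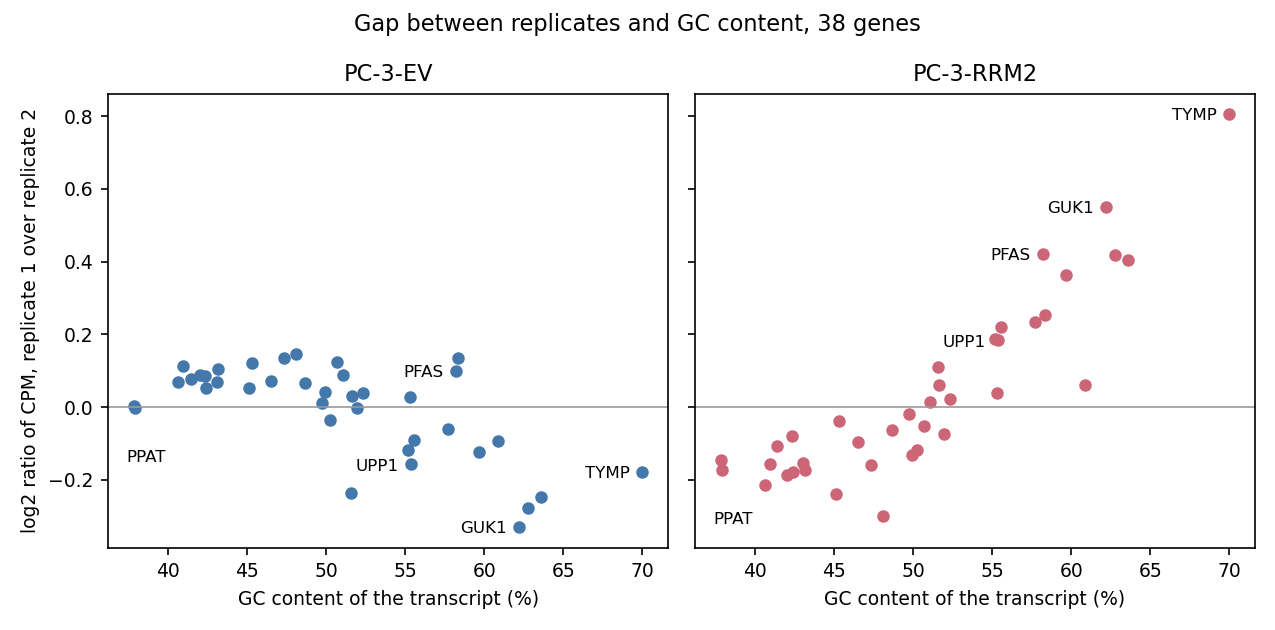
Log2 ratio of CPM of replicate 1 over replicate 2 (y axis) against the GC content of the transcript in percent (x axis) for the 38 genes, in PC-3-EV (left) and PC-3-RRM2 (right). TYMP, at 70.0% GC, has the widest gap in PC-3-RRM2 (0.81), and GUK1 follows at 0.55.

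Of 61 further pathway genes, which cover ribose and serine supply, folate handling, purine and pyrimidine turnover and nucleoside transport, 56 were tested. Among them 5 were called higher and 5 lower (17.9% against 18.2% of all genes). None of 11 ribose and serine supply genes was called. In folate handling 2 of 13 were lower. SLC19A1, the reduced folate carrier, fell (21.8 and 28.4 CPM against 17.7 and 14.6 CPM, log2 fold change -0.63, adjusted p = 0.0165). It was called in 10 of 14 settings, and not with GC offsets (-0.47), without PC-3-EV replicate 2 (-0.48, adjusted p = 0.0714), without PC-3-RRM2 replicate 2 (-0.50) or in a test against 1.5-fold.

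In purine turnover, 3 of 19 genes were higher and 2 lower. AK4, a mitochondrial adenylate kinase, fell from 126 and 127 CPM to 64.7 and 73.5 CPM (-0.87, adjusted p = 0.000249). ADA, adenosine deaminase, rose from 13.7 and 12.1 CPM to 27.2 and 21.6 CPM (0.92, adjusted p = 0.00227). ADSSL1, the muscle-type paralog of ADSS, rose at a low level (0.87, adjusted p = 0.00878), and GMPR, GMP reductase, fell (-0.72, adjusted p = 0.0158). ADSSL1 was not called without PC-3-EV replicate 2 (0.75, adjusted p = 0.0592), nor GMPR without PC-3-RRM2 replicate 2 (-0.53), and the test against 1.5-fold called none of ADA, ADSSL1 and GMPR. CMPK2, the mitochondrial UMP/CMP kinase, was the 1 of 8 pyrimidine turnover genes called, and fell from 3.30 and 3.20 CPM to 1.45 and 1.52 CPM (-1.13, adjusted p = 0.00366).

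Of 5 nucleoside transport genes tested 2 were called higher, both at low counts. SLC28A1, a concentrative nucleoside transporter, had 0 counts in both PC-3-EV libraries against 25 and 32 in PC-3-RRM2. The level was at least 21.4-fold higher, with the floor at 3 counts over the PC-3-EV group. SLC28A1 passed the filter on low counts only through the group where it is high, so its place among the 5 genes called higher is no support for the list, and it was not tested under the stricter filter. SLC28A3, of the same family, had 13 and 12 counts against 44 and 27 (log2 fold change 1.67, SE 0.382, adjusted p = 0.0125). SLC28A3 was called in 10 of 13 settings, and not by DESeq2 (adjusted p = 0.0623), in the test against 1.5-fold (0.0708) or without PC-3-RRM2 replicate 1 (0.0572).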

How the data were processed

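Total RNA was sequenced by the authors as paired 50-base reads and processed in Partek. Aligner and counting settings: not given in the sources used here. That deposited table holds estimated counts per gene, not normalized (55.98 to 57.67% of values whole), with a lowest sum of 10 per gene. 23 symbols had been turned into dates. Counts were rounded, filtered with filterByExpr, scaled by TMM and tested across genes with edgeR 4.0.16 (R 4.3.3) by the quasi-likelihood F-test with Benjamini-Hochberg adjustment over 15781 genes. limma 3.58.1 and DESeq2 1.42.0 gave alternatives. With 2 against 2 libraries, an exact two-sided permutation test cannot go below p = 0.333, and none was used. Depth (30149181 to 37801301 counts) limits genes of few counts, and the number of libraries limits the rest.

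The genes, lists and pairs were chosen with earlier results of these data known, although no measured value entered the rule for the 38. Named with values in every library were genes at adjusted p below 0.05 and both genes of each pair, and of other pathway genes at most 4 called per list, by smallest p. Some genes that this rule or the marker lists cover are not reported here. Sequences are from RefSeq (37 of 38 symbols matched) and GC content and lengths from GENCODE 29. The script was tested on simulated data.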

Additional observations from a re-analysis of the deposited data

How the results depend on the processing

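Of the alternatives, other size factors (RLE, upper quartile), DESeq2, limma-voom and the replicate block left UPP1 and TYMP as the only genes of the 38 called. UPP1 was called in all 14 (log2 fold change 0.97 to 1.16). TYMP was called in 10. The number called lower was 0 with no filter on low counts (TYMP adjusted p = 0.0517, with 16.3% of all genes called). It was 0 with a stricter filter (0.0650, 17.6%). It was also 0 in a test against 1.5-fold (0.478, 7.98%), under which 781 of all genes were higher and 479 lower. Leaving out 1 library left 1 in that group, so PPAT and PFAS are given by effect size. PPAT had a log2 fold change of 0.59 without PC-3-RRM2 replicate 1, past 1.5-fold. PFAS passed 1.5-fold too, at -0.78 without PC-3-RRM2 replicate 1 and -0.65 without PC-3-EV replicate 2.

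The count at any fold was 9. It was 6 of 38 with the replicate block (all genes 29.1%), where CTPS2, DGUOK and TK2 dropped out. It was 5 to 16 without 1 library: 5 without either PC-3-EV library (20.9% and 20.7%), 16 and 14 without PC-3-RRM2 replicate 1 and 2 (45.8% and 39.0%). CTPS2, DGUOK and TK2 dropped out without either PC-3-EV library, PFAS without its replicate 1 and MTHFD2 without its replicate 2. Across genes, the deviations of same-numbered libraries from their group means had a correlation of -0.269. Whether equal numbers mark libraries prepared together is not given in the sources used here and cannot be told from this value. The crossed block and GC offsets were chosen after seeing the data. The crossed replicate block gave 18 of 38 and GC offsets 25 of 38, against 53.6% and 58.2% of all genes. The fit with GC offsets covered 13777 genes. With GC offsets the share of the 38 was above that of all genes, while in the main fit it was below (23.7% against 34.2%). The cause was not tested.

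Values near 0 changed sign. With GC offsets PAICS was -0.033 and GMPS -0.022. Without 1 library the ranges were -0.136 to 0.0543 for PRPS1, -0.0640 to 0.0651 for PAICS, -0.141 to 0.0061 for ADSL, -0.0665 to 0.112 for GMPS, -0.0652 to 0.167 for CAD, -0.0528 to 0.0442 for NME2, -0.225 to 0.0265 for UCK1, -0.27 to 0.28 for GUK1, -0.0052 to 0.357 for DTYMK and -0.13 to 0.28 for APRT. Of 684 values over 49 genes, 640 kept direction and side of the threshold.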
